A study of Mus musculus with 12 samples.

Results

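The tunicamycin response of wild-type mouse liver was read from 6 of the 12 arrays of a series, 3 from animals given tunicamycin and 3 from animals given the vehicle. All 6 animals were wild-type for Atf6a (genotype +/+), and the remaining 6 arrays came from Atf6a-/- animals given the same treatments. Tunicamycin at 1 mg/kg in 150 mM dextrose, or dextrose alone, was injected into the peritoneum, and total RNA of liver homogenate was taken 34 h later. One label field gives 8 h, while the titles and the extraction protocol give 34 h. The mice were of both sexes and of varying age, neither of which the labels give per animal, and they were fasted before the livers were taken. Each array measured 1 animal, so the spread between arrays includes the spread between animals. Of 45101 features, 45037 were tested, and each of 18193 genes was read from 1 probe set, the one with the highest mean over all 12 arrays among probe sets linked to a single symbol. Values below are log2 RMA intensities, and a change is the tunicamycin mean minus the vehicle mean on that scale, ± its standard error. "Rose" and "fell" mark changes with an adjusted p under 0.05 and over 1.5-fold, where p came from limma over all 12 arrays with Benjamini-Hochberg adjustment over all tested probe sets.

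The animals within a group were not alike. On the first principal component of the 6 arrays, which held 53.6% of the variance, vehicle animals lay between -36 and -26.7, tunicamycin animals 1 and 3 at 21.3 and 23.8, and tunicamycin animal 2 at 49.7. Xist, the RNA that coats the inactive X chromosome of females, read 12.19, 6.14 and 5.43 after vehicle and 6.68, 5.61 and 5.56 after tunicamycin, so that 1 vehicle animal stood apart. Only vehicle animal 1 thus read high, as a female would, and all tunicamycin animals read low. Judged by Xist alone, the sexes were not balanced between the groups, although the labels give no sex. Hybridisation spike-ins averaged 8.85 to 9.18 in the tunicamycin arrays and 9.19 to 9.55 in the vehicle arrays. Setting the arrays equal on these spike-ins would move the median change of all genes from -0.02 to 0.33, and changes below are relative to the former. Albumin (Alb), the defining product of hepatocytes, read 14.80, 14.76 and 14.75 after vehicle and 14.73, 14.55 and 14.76 after tunicamycin, and the 9 measured hepatocyte markers averaged 13.75 to 13.91 in vehicle animals and 13.22 to 13.66 in tunicamycin animals.

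Tunicamycin inhibits Dpagt1, the enzyme that places the first sugar on the lipid carrier dolichol phosphate, so that secretory proteins enter the endoplasmic reticulum (ER) without their N-linked glycans and fold poorly. Unfolded proteins in the ER set off the unfolded protein response through the membrane sensors PERK (Eif2ak3), IRE1 (Ern1) and ATF6 (Atf6). PERK slows translation and favours synthesis of ATF4 and CHOP (Ddit3), IRE1 splices the mRNA of Xbp1, and ATF6 is cleaved in the Golgi to release a transcription factor. Cleaved ATF6, together with the factor NF-Y, is known to bind the ER stress response element (ERSE), and XBP1 the related unfolded protein response element (UPRE). Hepatocytes secrete most plasma proteins and carry an extensive ER, which also holds much of the machinery of lipid, bile acid and drug metabolism.

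The ERSE was looked for in the promoters of the measured genes, from 250 bases before to 50 after each RefSeq start (build GRCm38.p6), as CCAAT and CCACG separated by 9 bases on either strand. It stood in the promoters of 20 measured genes, of which 11 rose (of all 18193 genes, 3.45% rose and 3.86% fell). The sites of these 11 genes are given with 10 flanking bases on each side, 5′ to 3′ and read from CCAAT to CCACG, to show the bases between and around these letters. The letters themselves were required by the search, so all 20 genes share them, risers or not. Capitals mark both ends of the element, and the line gives the position of the element and the strand on which it reads this way.
Derl3, chr10:75893242-75893260 (-): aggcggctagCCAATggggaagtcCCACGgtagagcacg
Creld2 and Alg12, chr15:88819520-88819538 (-): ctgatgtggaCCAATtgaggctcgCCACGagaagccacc
Syvn1, chr19:6046532-6046550 (+): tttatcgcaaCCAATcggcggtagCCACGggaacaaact
Dnajc3, chr14:118937827-118937845 (+): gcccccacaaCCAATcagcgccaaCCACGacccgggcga
Pdia6, chr12:17266491-17266509 (+): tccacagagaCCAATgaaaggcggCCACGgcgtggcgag
Ero1b, chr13:12565682-12565700 (-): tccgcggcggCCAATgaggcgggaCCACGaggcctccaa
Hspa5, chr2:34772025-34772043 (+): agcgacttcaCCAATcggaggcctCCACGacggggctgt
Hsp90b1, proximal, chr10:86705533-86705551 (+): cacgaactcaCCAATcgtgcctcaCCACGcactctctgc
Hsp90b1, distal, chr10:86705638-86705656 (-): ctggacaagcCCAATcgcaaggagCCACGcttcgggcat
Calr, chr8:84847075-84847093 (+): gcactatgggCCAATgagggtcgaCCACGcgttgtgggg
Canx, chr11:50325800-50325818 (-): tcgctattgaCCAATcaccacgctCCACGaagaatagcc

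Creld2 and Alg12 lie head to head and share 1 site, 126 bases before the start of Creld2 and 220 before that of Alg12 as counted to its first base along each gene. Both rose, Creld2 by 5.15 ± 0.24 and Alg12 by 2.00 ± 0.16. Hsp90b1 has 2 elements, at 107 and 212 bases before its start. Of the remaining 9 genes with an ERSE, 8 were not called, with changes from -0.85 in Acnat2 to 0.93 in Zfp57, and Acacb, an acetyl-CoA carboxylase, fell (-1.87 ± 0.41), and was not called without vehicle animal 2, vehicle animal 3, tunicamycin animal 2 or tunicamycin animal 3 (adjusted p = 0.0523 to 0.0708). By gene, 55% of the 20 rose, against 3.66% of the 14452 measured genes with a promoter sequence. By promoter, the element was held by 1.62% of the 679 promoters of rising genes (95% Wilson interval 0.907 to 2.88), by 0.134% of the 744 promoters of falling genes, by 0.11% of the 18109 promoters of measured genes and by 0.119% of all 32851 promoters in the table. Most genes that rose therefore hold no ERSE in this window, which says only that these letters were not found there.

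The shorter ERSE-II (ATTGG and CCACG separated by 1 base) stood in 9 measured genes. The sites of the 3 that rose are shown in the same way, with its ATTGG and CCACG in capitals.
Dnajb11, chr16:22857852-22857862 (+): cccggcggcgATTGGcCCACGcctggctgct
Krtcap2, chr3:89246490-89246500 (+): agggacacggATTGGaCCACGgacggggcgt
Nucb1, chr7:45510439-45510449 (+): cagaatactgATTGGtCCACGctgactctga

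Dnajb11 is a cochaperone of the ER HSP70, Krtcap2 a subunit of the oligosaccharyltransferase and Nucb1 a calcium-binding protein of the Golgi, and they rose by 2.41, 1.22 and 0.84. Herpud1, which also holds the element, changed by 0.54 ± 0.24 (adjusted p = 0.259). The UPRE core (TGACGTGG) was found in 143 measured genes, of which 13.3% rose and 2.1% fell. Risers with this core include the disulfide isomerase Txndc5 (1.15), the membrane thioredoxin-like protein Txndc11 (1.02) and Lrrc59, a ribosome-binding protein of the ER membrane (1.52). The C/EBP-ATF element that ATF4 is known to bind (TGATGNAA) was found in 468 genes, of which 4.06% rose and 4.06% fell, close to the 3.66% and 3.82% of all genes with a promoter. The sterol regulatory element (SRE, TCACNCCAC) was found in 211 genes, of which 3.79% rose and 5.69% fell. An element that is present is a description of the letters and does not show that a factor was bound in these livers.

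**Figure D1:**
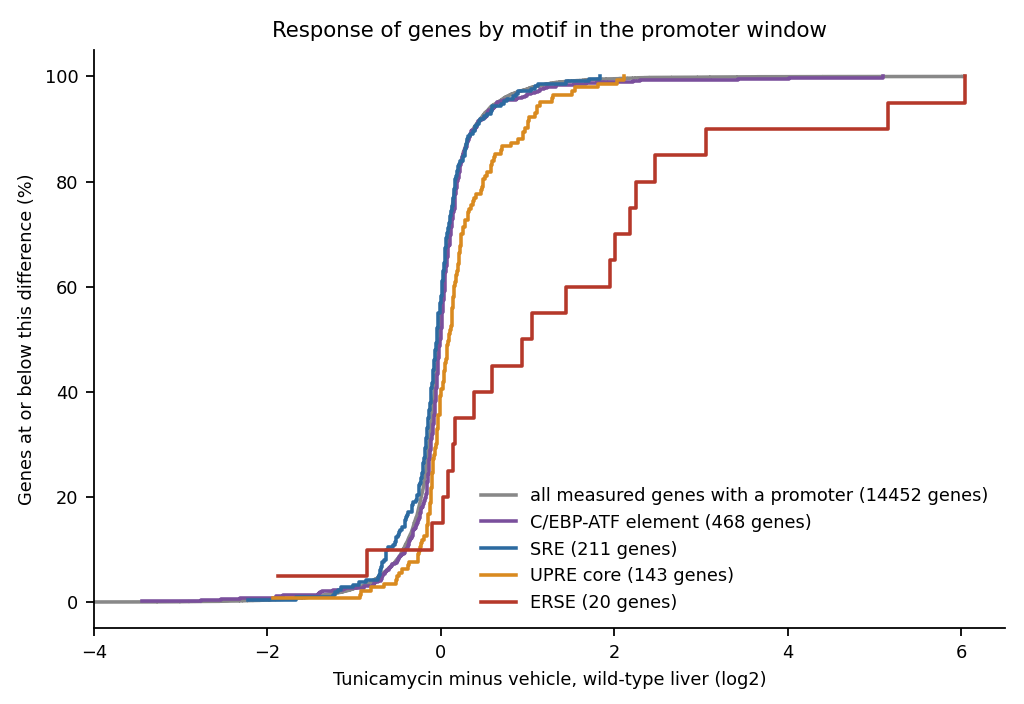
Cumulative share of genes (percent, y axis) at or below a given change after tunicamycin in wild-type liver (log2, x axis), with 1 line for genes that hold each motif in the promoter window and a grey line for all 14452 measured genes with a promoter. The line of the 20 genes with an ERSE runs to the right of the others over most of its length, that of the UPRE core lies between, and those of the C/EBP-ATF element and the SRE run close to the grey line.

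The whole promoter is shown for 2 genes, since the position of the element relative to the start differs between them. Derl3 had the largest rise of all genes, and its ERSE reads on the minus strand (capitals). In Hspa5, the gene of the ER HSP70 BiP, the element reads on the plus strand close to the start (capitals), and the sequence holds further CCAAT boxes in both orientations that are not followed by CCACG at the right distance.
Derl3, chr10:75893148-75893447 (+): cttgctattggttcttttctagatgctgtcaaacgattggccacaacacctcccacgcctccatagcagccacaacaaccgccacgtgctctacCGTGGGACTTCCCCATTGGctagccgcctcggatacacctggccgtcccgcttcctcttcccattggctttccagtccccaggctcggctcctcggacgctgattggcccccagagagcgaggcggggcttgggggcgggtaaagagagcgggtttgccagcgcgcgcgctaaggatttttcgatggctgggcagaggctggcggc
Hspa5, chr2:34771840-34772139 (+): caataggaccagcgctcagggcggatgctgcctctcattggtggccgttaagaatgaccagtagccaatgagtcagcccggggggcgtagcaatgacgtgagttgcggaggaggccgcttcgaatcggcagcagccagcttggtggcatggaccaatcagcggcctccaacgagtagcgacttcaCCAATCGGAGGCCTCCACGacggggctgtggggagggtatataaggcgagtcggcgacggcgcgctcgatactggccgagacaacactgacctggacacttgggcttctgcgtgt

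After tunicamycin, 628 genes rose (3.45% of 18193) and 702 fell (3.86%). Counts of list members below are to be read against these shares. Changes over 4-fold were seen in 74 rising and 68 falling genes, and over 16-fold in 8 rising and 2 falling genes. The wild-type groups of 3 did not overlap, with tunicamycin higher, in 11.8% of all genes and, with tunicamycin lower, in 15%. Among the 1330 genes called, 1327 had groups that did not overlap, so for a called gene the lack of overlap adds little to the call. Tunicamycin animal 2 lay farthest from the vehicle mean in 413 of the genes that rose and 402 of those that fell, and animals 1 and 3 in fewer. In the genes that rose, the median distance from the vehicle mean was 0.98, 1.22 and 0.85 in tunicamycin animals 1, 2 and 3.

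**Figure D2:**
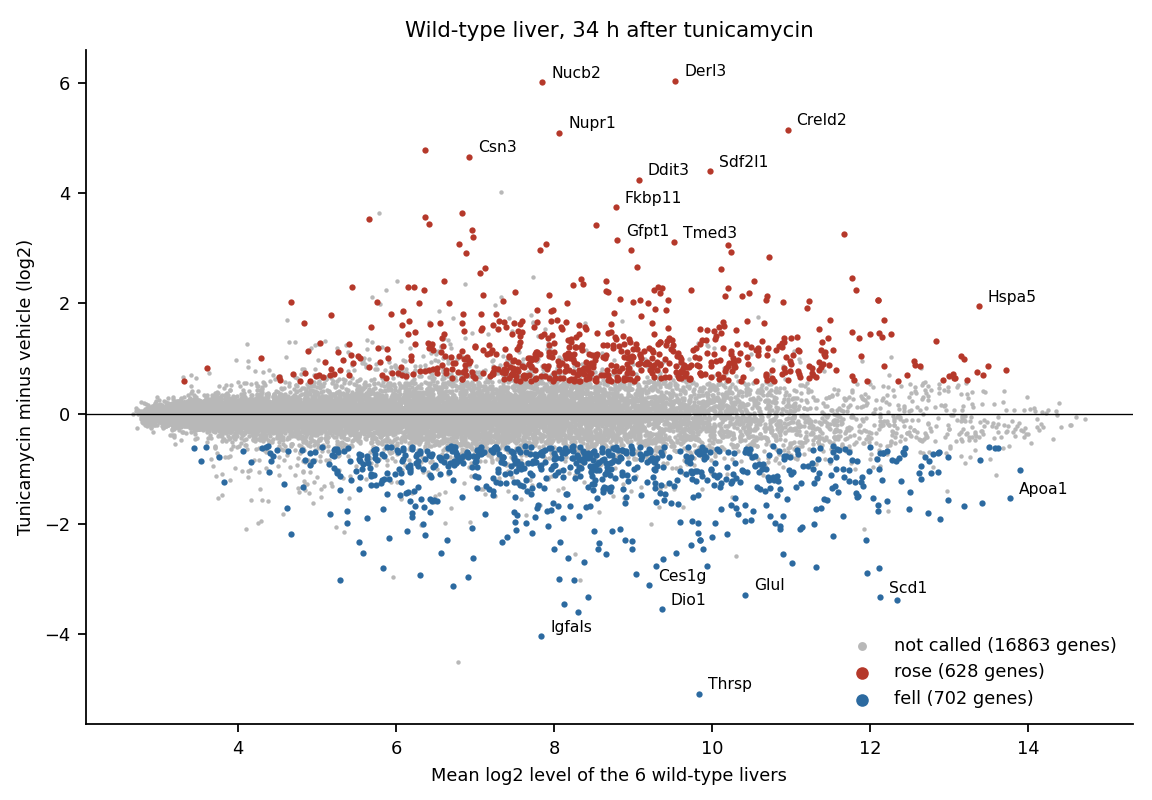
Change after tunicamycin (log2, y axis) against the mean level over the 6 wild-type arrays (log2 RMA, x axis) for 18193 genes, with the 628 that rose in red, the 702 that fell in blue and the rest in grey. More of the largest changes were rises than falls (22 against 14 over 8-fold).

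Among the largest rises were genes of the ER lumen and of membrane traffic. Nucb2, which encodes the calcium-binding precursor of nesfatin, read 4.23, 5.09 and 5.22 after vehicle and 10.50, 11.68 and 10.37 after tunicamycin. It rose by 6.01 ± 0.34 (adjusted p = 4.05e-06). Fkbp11, a peptidyl-prolyl isomerase of the ER, read 6.09, 7.03 and 7.62 after vehicle and 10.29, 11.36 and 10.30 after tunicamycin, and rose by 3.74 ± 0.40 (adjusted p = 0.00021). In both genes the 3 tunicamycin animals lay far above all vehicle animals. Manf, a secreted ER-resident survival factor, read 9.84, 10.11 and 10.16 after vehicle and 13.48, 13.29 and 13.10 after tunicamycin, a rise of 9.55-fold (adjusted p = 3e-06). Tmed3, a cargo receptor between ER and Golgi, rose by 3.11 ± 0.18 (adjusted p = 5e-06), and Tes, a focal adhesion protein, by 3.64 ± 0.46 (adjusted p = 0.000588). Bhlha15 (Mist1), a transcription factor of secretory cells, read 5.55, 5.27 and 5.44 after vehicle and 8.23, 9.01 and 7.76 after tunicamycin and rose by 2.91 ± 0.33.

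Many chaperones and folding enzymes of the ER rose. Of 19 measured members of the HSP70, HSP90 and cofactor list, 13 rose and 0 fell, with a median change of 1.16, against -0.02 over all genes. BiP (Hspa5), the HSP70 of the ER, read 12.37, 12.32 and 12.52 after vehicle and 14.47, 14.32 and 14.28 after tunicamycin, and its level rose 3.87-fold. Hyou1 and Hspa13, further HSP70-like proteins of the ER, rose by 2.06 ± 0.14 and 2.03 ± 0.21. The nucleotide exchange factor Sil1 (0.88) and the cyclophilin Ppib (1.31) rose by smaller amounts. Serpinh1, the chaperone of collagen, belongs to the same list and changed by -0.56 ± 0.17 (adjusted p = 0.0723, called without vehicle animal 1 or tunicamycin animal 3). J-domain cochaperones, which stimulate BiP, had 6 of 11 members up. Dnajb9 read 10.21, 10.07 and 10.33 after vehicle and 12.47, 12.46 and 11.82 after tunicamycin, and Dnajc10, a J-domain disulfide reductase, rose by 1.25.

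Disulfide isomerases and ER oxidases had 12 of 24 members up and 1 down. Pdia6 read 10.40, 10.74 and 10.95 after vehicle and 12.84, 13.18 and 12.82 after tunicamycin and Pdia3 11.20, 11.33 and 11.45 after vehicle and 13.08, 13.17 and 12.86 after tunicamycin, with no overlap between groups. They rose by 2.25 ± 0.16 and 1.71 ± 0.14. Of the oxidases that pass electrons from isomerases to oxygen, Ero1b rose by 2.19 ± 0.16, and Ero1a by 0.69 ± 0.14 (0.57, under 1.5-fold, without tunicamycin animal 1). Tmx4, a membrane isomerase, fell (-0.98 ± 0.18, adjusted p = 0.00709). Lectin chaperones, which hold glycoproteins that carry a trimmed glucose, had 6 of 8 members up. The glucosyltransferase Uggt1, which marks misfolded glycoproteins, rose by 1.64 ± 0.13, the glucosidase subunit Prkcsh by 1.14, the glucosidase Mogs by 1.12 and the lectin Calr by 1.05. The membrane lectin Canx rose by 0.59, and was not called without vehicle animal 1, vehicle animal 2 or tunicamycin animal 2 (adjusted p = 0.0627 to 0.076), nor with the Xist level as a covariate.

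Components that draw misfolded proteins out of the ER for degradation had 16 of 36 members up and 0 down. The channel protein Derl1 read 9.67, 9.88 and 10.12 after vehicle and 12.03, 11.89 and 11.83 after tunicamycin and rose 4.08-fold. Sel1l, the partner of the ubiquitin ligase Syvn1, rose by 2.13 ± 0.20, and Selenos, which recruits the ATPase VCP, by 1.70 ± 0.16. Edem1, of the mannosidase family that trims glycans of proteins bound for degradation, rose by 1.21 ± 0.19. The cytosolic segregase itself did not pass, with changes of 0.27 in Vcp and 0.22 in its cofactor Nploc4. Proteasome subunits, which act after extraction, had 1 of 41 members up and 12 down (6 without vehicle animal 2, 6 without vehicle animal 3, 6 without tunicamycin animal 1 and 5 without tunicamycin animal 3), with a median of -0.45. The largest falls there were the interferon-inducible subunits Psmb8 (-1.62 ± 0.16) and Psmb9 (-1.52 ± 0.28) and the activator Psme1 (-1.25 ± 0.17), and the constitutive subunits Psmb5 and Psmb6 changed by 0.15 and -0.04.

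Translocation into the ER was the list with the highest share of risers among those of over 20 members, 21 of 26, and none fell. Risers covered the signal recognition particle and its receptor (Srprb 2.15, Srp9 0.95, Srp68 0.92), the Sec61 channel (Sec61a1 1.38, Sec61b 1.15), the translocon-associated proteins (Ssr1 1.06, Ssr3 1.31) and signal peptidase (Sec11c 1.55, Spcs2 1.30). Srprb, the membrane anchor of the receptor, read 6.59, 7.02 and 6.95 after vehicle and 8.99, 9.38 and 8.64 after tunicamycin. All 3 tunicamycin animals lay above all vehicle animals. Sec62, a translocon partner with a role in recovery from ER stress, changed by 0.06 ± 0.11 (adjusted p = 0.866).

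Genes of N-glycosylation, the process that tunicamycin blocks, rose at several of its steps. Dpagt1, the target of the drug, read 8.56, 8.51 and 8.56 after vehicle and 9.95, 10.09 and 9.93 after tunicamycin. It rose by 1.45 ± 0.08 (2.73-fold, adjusted p = 4.05e-06), and the groups did not overlap. Sugar donor and dolichol genes had 14 of 31 members up and 0 down. The first step of the hexosamine pathway, Gfpt1, read 7.03, 7.26 and 7.36 after vehicle and 10.52, 10.93 and 9.65 after tunicamycin and rose 8.86-fold, followed by Gnpnat1 (1.26), while the last enzyme of the path, Uap1, changed by 0.50 ± 0.20 (adjusted p = 0.197). GDP-mannose synthesis showed Gmppb up by 2.41 ± 0.25 and its partner Gmppa up by 1.36 ± 0.16, whereas Pmm2, which acts before them, changed by -0.30 ± 0.10 (adjusted p = 0.121). Of the enzymes that make dolichol, Dhdds and Nus1, which form 1 complex, rose by 1.17 and 1.09. Oligosaccharyltransferase, which moves the finished glycan to the protein, had 10 of 12 subunits up, from 0.73 in Tmem258 (0.56, under 1.5-fold, without tunicamycin animal 1) to 1.39 in Ddost, and the 2 not called, Ost4 and Tusc3, changed by 0.44 and 0.15.

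Of the genes of traffic between ER and Golgi, some rose in each direction of transport and others did not pass. The COPII coat and export list had 15 of 33 members up and 0 down, and the COPI coat and retrieval list 10 of 28 up and 0 down. The tether Uso1 read 9.13, 9.39 and 9.56 after vehicle and 10.99, 11.11 and 10.75 after tunicamycin and rose by 1.59 ± 0.14. Mcfd2, the partner of the cargo receptor Lman1, rose by 1.40 ± 0.19, and the coat subunit Sec23b by 1.37 ± 0.20, against 0.28 ± 0.14 in its paralog Sec23a (adjusted p = 0.334). On the return path, the GTPase activator Arfgap3 rose by 1.81 ± 0.34 and the KDEL receptor Kdelr2 by 0.66 ± 0.12. Kdelr3, the third KDEL receptor, read 4.80, 4.60 and 4.51 after vehicle and 4.24, 9.23 and 6.77 after tunicamycin, so that animal 2 was far above and animal 1 below the vehicle animals, and it was not called (adjusted p = 0.199, called without tunicamycin animal 1).

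**Figure D3:**
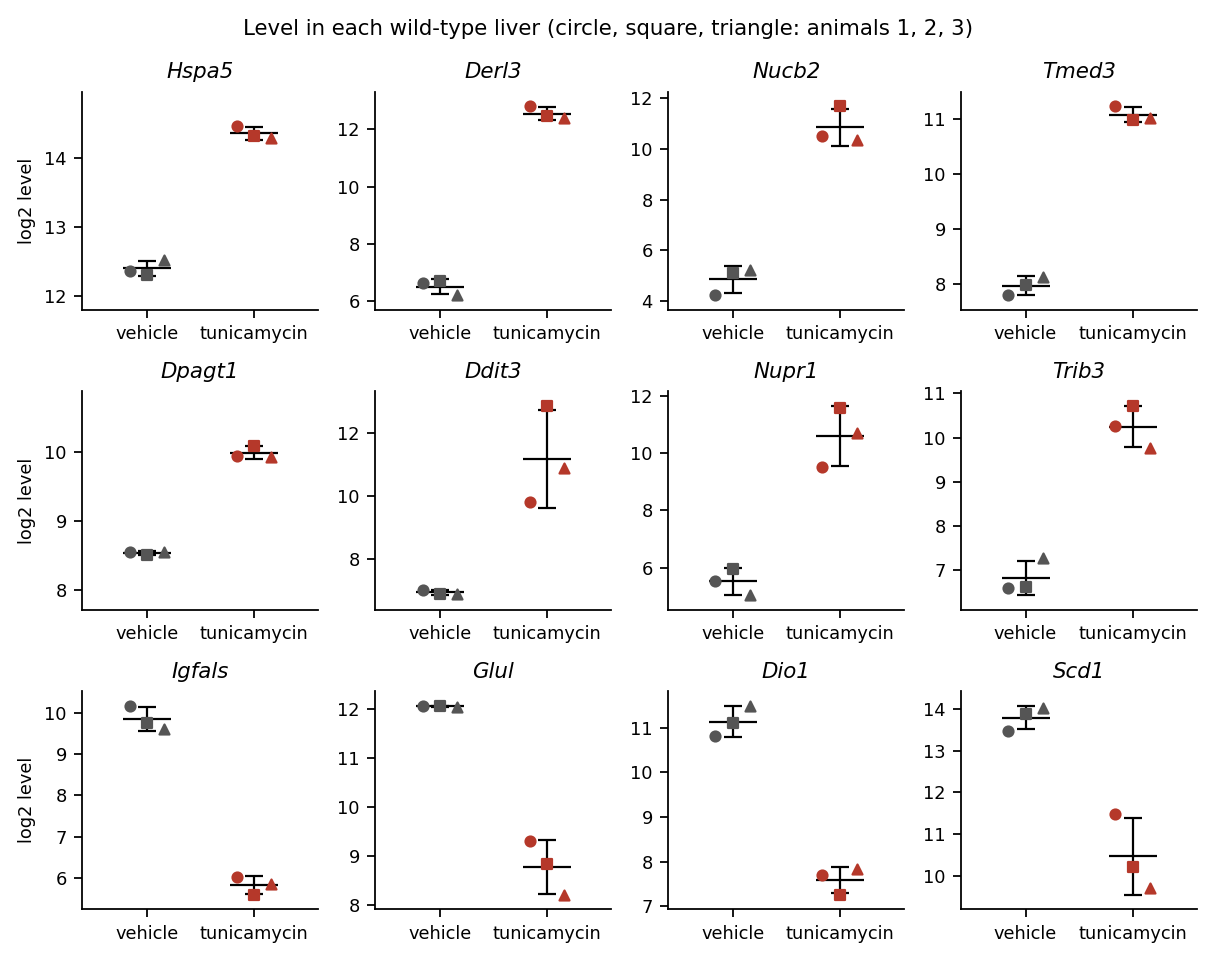
Level in each wild-type animal (log2 RMA, y axis) of 12 genes, with 1 point per animal, a line at the group mean and bars of 1 SD, and with a y axis of its own for each gene that does not start at 0. In Hspa5, Tmed3 and Dpagt1 the 3 tunicamycin animals lie close together, while in Ddit3 and Nupr1 animal 2 lies above animals 1 and 3.

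Of the sensors and other ER-membrane factors, 4 of 12 rose and 0 fell. Atf6 read 8.54, 8.42 and 8.49 after vehicle and 9.30, 9.72 and 9.49 after tunicamycin and rose by 1.02 ± 0.15, and its relative Atf6b read 5.94, 5.64 and 5.94 after vehicle and 7.28, 7.05 and 6.80 after tunicamycin and rose by 1.20 ± 0.18, with no overlap between groups in either. Creb3l2, an ER-membrane factor of the ATF6 family, read 6.43, 6.37 and 6.49 after vehicle and 7.72, 8.60 and 7.79 after tunicamycin and rose by 1.61 ± 0.25. Eif2ak3 (PERK) rose by 1.66 ± 0.31. Ern1 (IRE1) changed by 0.26 ± 0.29 (adjusted p = 0.736), and Creb3l3, the liver-enriched member, by -0.01 ± 0.13. Xbp1, whose spliced and unspliced RNA its array level does not tell apart, read 11.12, 11.72 and 11.82 after vehicle and 11.89, 11.86 and 11.65 after tunicamycin, so that the groups overlapped, and was not called (adjusted p = 0.588).

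Several genes of the ATF4 and CHOP arm lay apart between the tunicamycin animals. CHOP (Ddit3), a factor of the response to unresolved stress, read 7.03, 6.91 and 6.89 after vehicle and 9.81, 12.87 and 10.89 after tunicamycin and rose by 4.25 ± 0.54, with animal 2 highest. Atf4 itself, which is regulated mainly through translation, read 10.60, 10.15 and 10.33 after vehicle and 10.67, 11.72 and 10.87 after tunicamycin and was not called (adjusted p = 0.0939, called without tunicamycin animal 1). Trib3, a pseudokinase target of CHOP, read 6.59, 6.61 and 7.27 after vehicle and 10.26, 10.71 and 9.77 after tunicamycin. It rose by 3.42 ± 0.35 (adjusted p = 0.000148). Atf3, a factor induced by ATF4, read 5.86, 5.07 and 5.02 after vehicle and 5.34, 12.37 and 10.27 after tunicamycin. Animal 1 lay within the vehicle range and animals 2 and 3 far above it, so that the change of 4.01 ± 1.25 was not called (adjusted p = 0.0854). Chac1, a glutathione-degrading enzyme, showed the same order of animals at 6.82, 7.42 and 6.46 after vehicle and 7.29, 10.03 and 8.40 after tunicamycin (adjusted p = 0.112), as did the cell cycle inhibitor Cdkn1a at 6.29, 6.57 and 5.94 after vehicle and 6.40, 10.34 and 8.40 after tunicamycin (adjusted p = 0.107). Without tunicamycin animal 1, Atf3, Chac1 and Cdkn1a were called. Gadd45a, a growth arrest gene, rose by 3.21 ± 0.64 (9.22-fold). In all, 6 of 25 list members rose and 0 fell (11 without tunicamycin animal 1). The list median was 0.33, 1.36 and 0.47 above the vehicle mean in tunicamycin animals 1, 2 and 3, against 1.34, 1.13 and 1.09 for the HSP70 and HSP90 list.

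**Figure D4:**
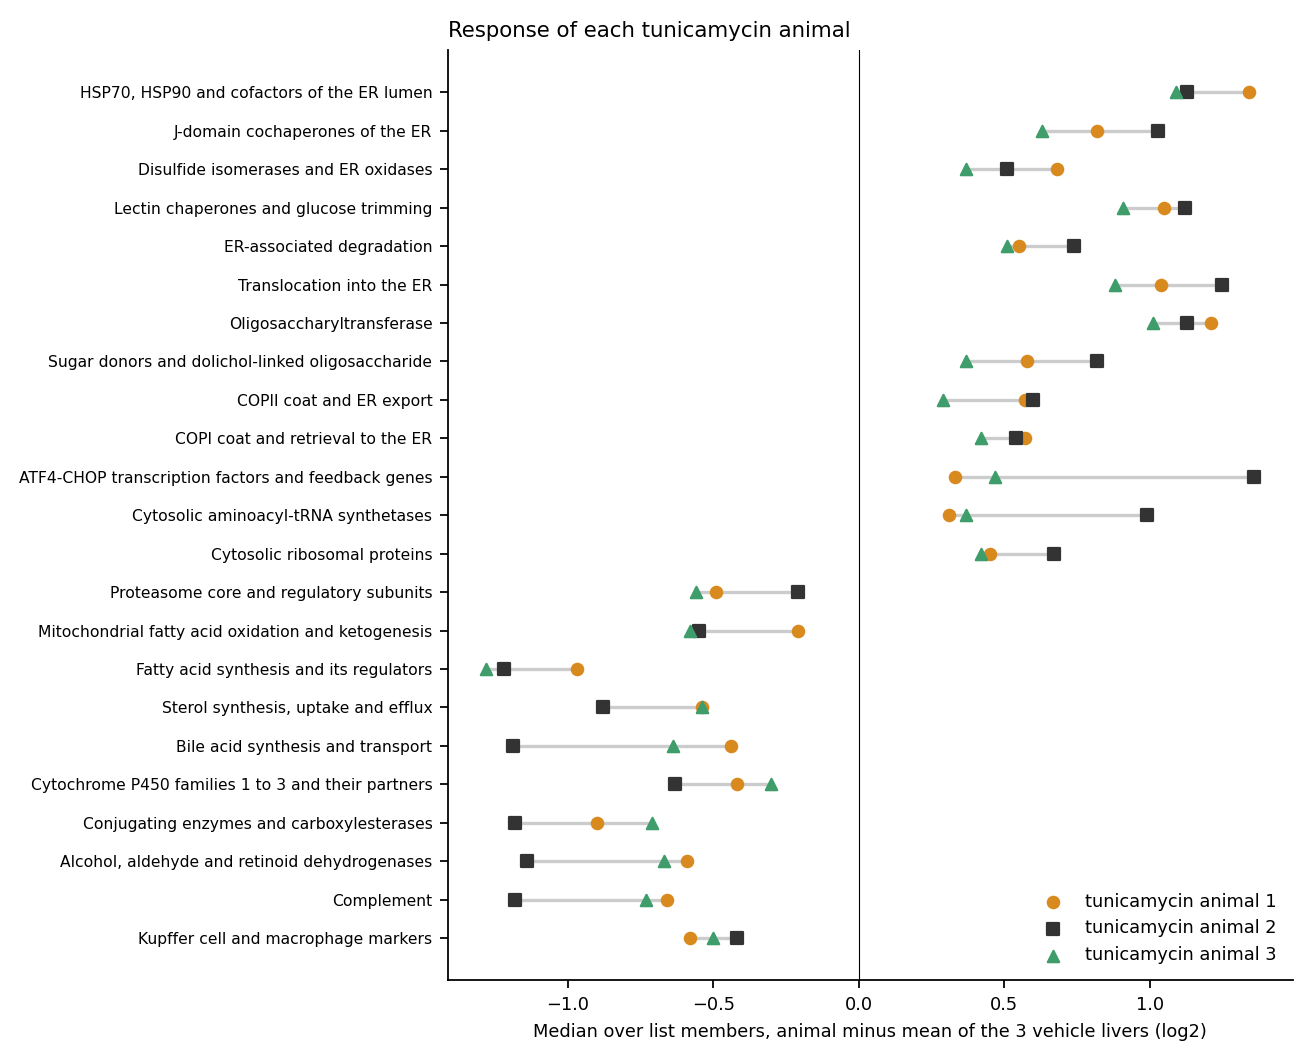
Median distance from the vehicle mean (log2, x axis) of the members of 23 gene lists (y axis) in tunicamycin animals 1, 2 and 3. The ER lists lie above 0 in all 3 animals, the ATF4-CHOP list lies at 0.33, 1.36 and 0.47, and the lists of bile acid, conjugating enzyme and dehydrogenase genes lie lowest in animal 2.

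Amino acid synthesis and charging, which ATF4 is known to drive, rose in part. Of 14 genes of serine, one-carbon and asparagine synthesis, 3 rose and 0 fell (1 without vehicle animal 1, 1 without vehicle animal 2, 2 without vehicle animal 3, 5 without tunicamycin animal 1, 1 without tunicamycin animal 2 and 1 without tunicamycin animal 3). Asparagine synthetase (Asns), whose promoter holds a C/EBP-ATF element (chr6:7693160-7693459, minus strand, in capitals), read 5.15, 6.44 and 7.60 after vehicle and 8.58, 8.91 and 8.34 after tunicamycin, a change of 2.22 ± 0.59 (adjusted p = 0.0445), and was not called without vehicle animal 1, vehicle animal 2, tunicamycin animal 1, tunicamycin animal 2 or tunicamycin animal 3 (adjusted p = 0.0798 to 0.139).
Asns: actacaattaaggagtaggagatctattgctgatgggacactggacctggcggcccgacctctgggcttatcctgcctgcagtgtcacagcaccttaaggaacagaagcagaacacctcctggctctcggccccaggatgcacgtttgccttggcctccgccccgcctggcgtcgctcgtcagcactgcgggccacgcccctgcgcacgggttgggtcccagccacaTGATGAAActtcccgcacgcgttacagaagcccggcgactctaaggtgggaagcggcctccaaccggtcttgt

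Aldh18a1, the first enzyme of proline synthesis, read 3.78, 4.51 and 3.60 after vehicle and 4.39, 10.60 and 7.82 after tunicamycin, again with animal 1 near the vehicle animals (adjusted p = 0.0687, called without animal 1). Cytosolic aminoacyl-tRNA synthetases, which load amino acids on tRNA, had 8 of 22 members up and 0 down, with list medians of 0.31, 0.99 and 0.37 in animals 1, 2 and 3. Sars, the seryl-tRNA synthetase, rose by 1.05 ± 0.14. Their mitochondrial counterparts had 1 of 16 up. Slc3a2, the heavy chain of amino acid exchangers, rose by 1.66 ± 0.23, while Slc1a2, the glutamate carrier of the hepatocytes around the central vein, fell by 1.51 ± 0.23. Of 36 cytosolic ribosomal proteins measured by a single-gene probe set, 12 rose and 0 fell (8 without tunicamycin animal 2), with a median of 0.52 and the largest rise in Rps6 (1.24 ± 0.12). Ribosomal protein genes have many processed pseudogenes of near-identical sequence, so their probe sets may read more than 1 locus.

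**Figure D5:**
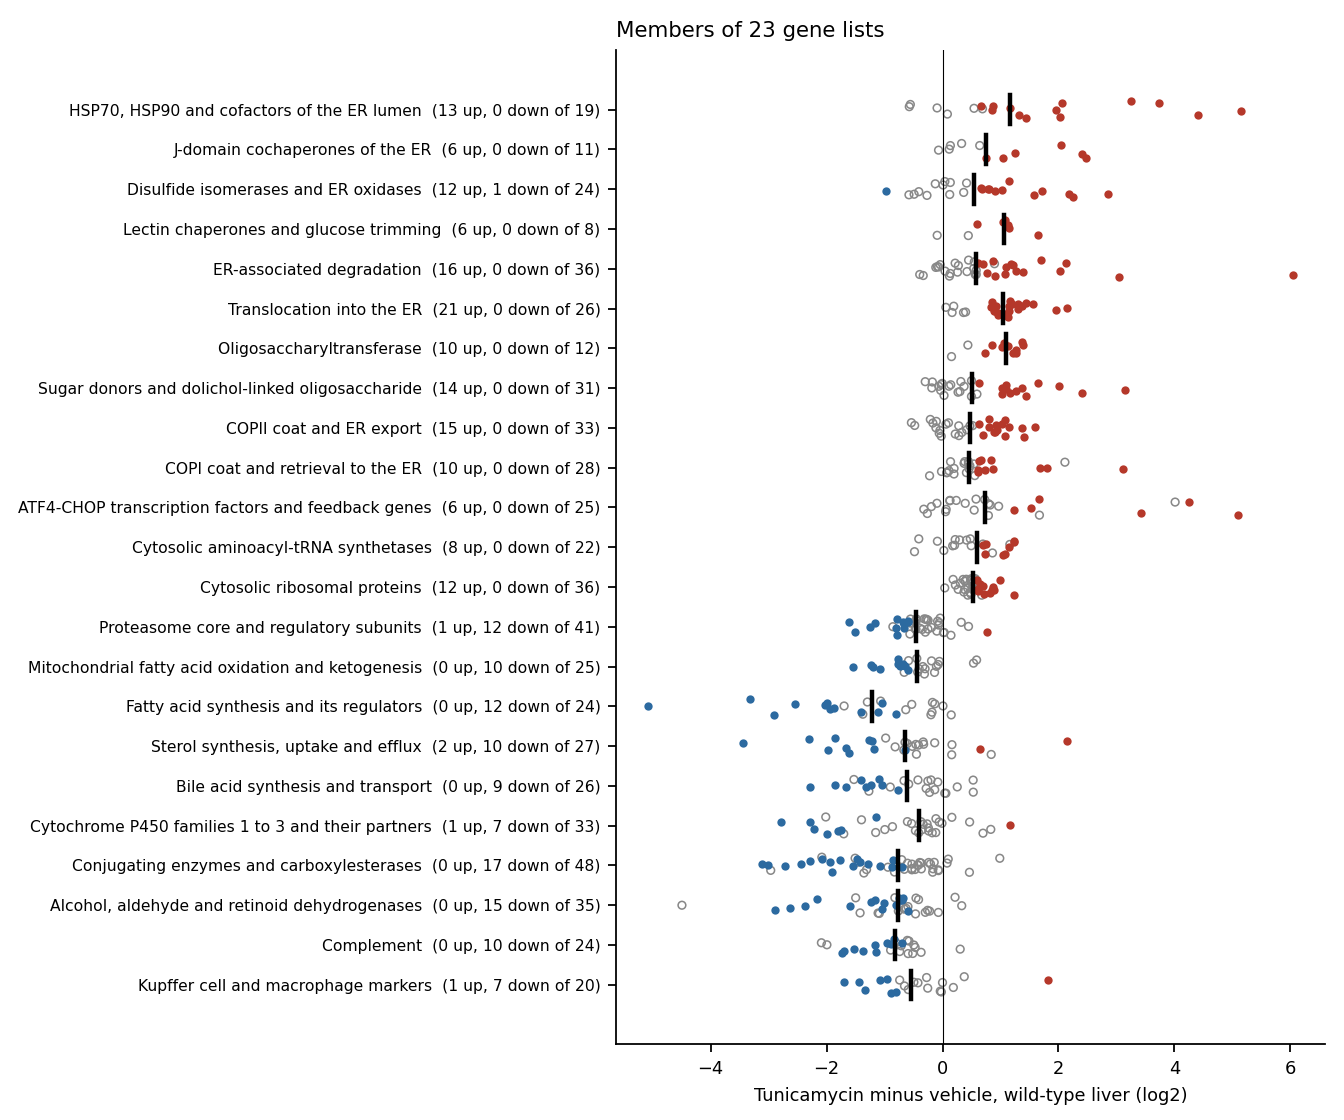
Change of each member (log2, x axis) of 23 gene lists (y axis) in wild-type liver after tunicamycin, with genes that rose in red, genes that fell in blue, others as open circles and a black bar at the list median. Medians of the ER and traffic lists lie to the right of 0 and those of lipid, bile acid and drug metabolism to its left, from 1.16 for HSP70, HSP90 and cofactors to -1.21 for fatty acid synthesis.

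Fatty acid synthesis had 0 of 24 members up and 12 down (8 without vehicle animal 3), with a median of -1.21. The falls included elongases and desaturases of long polyunsaturated fatty acids as well as lipogenic genes. Elovl5, an elongase, read 11.83, 12.25 and 12.42 after vehicle and 9.93, 9.19 and 9.73 after tunicamycin and fell by 2.55 ± 0.21 (adjusted p = 3.75e-05). Fads1 and Fads2, the desaturases of the same path, changed by -2.03 ± 0.20 and -1.99 ± 0.18, and Elovl2 by -1.94 ± 0.28. Elovl6, which lengthens saturated chains, changed by 0.15 ± 0.25 (adjusted p = 0.838). Fabp5, a fatty acid carrier, read 8.29, 10.70 and 11.29 after vehicle and 6.78, 6.61 and 6.91 after tunicamycin and fell by 3.33 ± 0.56 (adjusted p = 0.00361).

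Phospholipid synthesis moved unevenly, with 2 of 24 genes of triglyceride and phospholipid synthesis up and 3 down. Pemt, which makes phosphatidylcholine by methylation, and Pcyt2, of the ethanolamine path, changed by -1.20 ± 0.17 and -1.32 ± 0.16, and the acyltransferase Agpat2 by -1.24 ± 0.15. Lpin3, a phosphatidate phosphatase, rose by 1.81 ± 0.26. Lipid droplet proteins and lipases had 0 of 21 up and 5 down (3 without vehicle animal 2 or tunicamycin animal 3). Mgll, the monoglyceride lipase, fell by 1.51 ± 0.20, while Plin2, the main droplet coat of hepatocytes, changed by -0.02 ± 0.24 (adjusted p = 0.984).

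Sterol synthesis, uptake and efflux had 2 of 27 members up and 10 down (6 without vehicle animal 2, 5 without vehicle animal 3 and 6 without tunicamycin animal 3). Pmvk, the second kinase of the mevalonate path, read 7.92, 8.72 and 8.83 after vehicle and 6.36, 6.77 and 6.44 after tunicamycin and fell by 1.97 ± 0.27. Stard4, a cholesterol carrier, read 8.91, 9.28 and 9.52 after vehicle and 7.73, 7.29 and 7.13 after tunicamycin and fell by 1.86 ± 0.18. Mvd, the enzyme after Pmvk in the same path, went the other way, at 5.79, 6.18 and 6.08 after vehicle and 7.11, 9.57 and 7.84 after tunicamycin (2.15 ± 0.46, adjusted p = 0.0144), and was not called without vehicle animal 1 (adjusted p = 0.0517). Srebf2, the regulator of the pathway, changed by -0.45 ± 0.14 (adjusted p = 0.0907).

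Mitochondrial fatty acid oxidation and ketogenesis had 10 of 25 members down and 0 up. Bdh1, which makes the ketone body 3-hydroxybutyrate, read 11.75, 11.61 and 11.81 after vehicle and 10.06, 10.04 and 10.42 after tunicamycin and fell by 1.55 ± 0.27. Acat1 and Hadh, of thiolysis and short-chain oxidation, changed by -1.23 ± 0.21 and -1.07 ± 0.20, and Cpt1a, the gate of mitochondrial entry, by -0.11 ± 0.14 (adjusted p = 0.792). Of 59 subunits of oxidative phosphorylation, 0 rose and 1 fell. Among 26 peroxisomal and microsomal genes, 2 rose and 6 fell (3 without vehicle animal 2, 3 without vehicle animal 3, 9 without tunicamycin animal 1 and 4 without tunicamycin animal 2). The thioesterase Acot2, which is mitochondrial although placed in this list, rose by 2.06 ± 0.31, and Cyp4a31, a fatty acid hydroxylase, by 2.29 ± 0.42. Cyp4f14 and the carrier Scp2 changed by -2.24 ± 0.30 and -1.56 ± 0.19. Probes for the closely related Acot and Cyp4a genes may cross-hybridise.

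Bile acid synthesis and transport had 9 of 26 members down and 0 up. Slc10a1, the sodium-dependent carrier that takes bile acids up from blood, read 12.97, 12.78 and 13.03 after vehicle and 11.27, 11.17 and 11.35 after tunicamycin. It fell by 1.66 ± 0.26 (adjusted p = 0.00209). Hsd3b7, of the synthesis path, changed by -1.85 ± 0.18, the receptor kinase Fgfr4, which carries the signal of intestinal FGF, by -1.41 ± 0.20, and the nuclear receptor Nr1h4 (FXR) by -1.09 ± 0.15. The export pump Abcb11 fell by 1.05 ± 0.15, and the exporter Abcc2 changed by 0.53 ± 0.14 (adjusted p = 0.044), under 1.5-fold but called without vehicle animal 3 or tunicamycin animal 2.

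Of 48 conjugating enzymes and carboxylesterases, 17 fell and 0 rose. The carboxylesterase Ces2e read 8.68, 9.93 and 10.07 after vehicle and 7.44, 5.86 and 6.37 after tunicamycin, and fell by 3.00 ± 0.42. Ces1f changed by -2.71 ± 0.30 and Ces1g by -3.11 ± 0.50. The glutathione transferase Gsta4 read 10.78, 11.02 and 11.17 after vehicle and 8.16, 8.65 and 9.29 after tunicamycin, a change of -2.29 ± 0.26, while Gstm1 changed by -0.37 ± 0.15 (adjusted p = 0.2). Cytochrome P450 genes of families 1 to 3 and their partners had 7 of 33 down and 1 up. Cyp2c50 and Cyp2c54 changed by -2.29 ± 0.25 and -2.22 ± 0.31, and Cyp2e1, the ethanol-inducible form, by -0.24 ± 0.26 (adjusted p = 0.725). Dehydrogenases of alcohols, aldehydes and retinoids had 15 of 35 down and 0 up (8 without vehicle animal 3). The aldo-keto reductase Akr1c6 read 13.17, 13.42 and 13.63 after vehicle and 9.04, 10.86 and 11.67 after tunicamycin, and Akr1c20 and Akr1c6 changed by -2.64 ± 0.29 and -2.88 ± 0.52. Members of the Ces1, Cyp2c and Akr1c clusters are near-identical in places, so that neighbouring genes cannot be fully told apart on this array.

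Glucose and glycogen metabolism had 6 of 40 members down and 1 up. Pygl, the liver glycogen phosphorylase, read 11.78, 11.81 and 12.13 after vehicle and 10.34, 9.35 and 9.77 after tunicamycin and fell by 2.09 ± 0.23. Ppp1r3c, which brings protein phosphatase to glycogen, and the aldolase Aldoc changed by -2.33 ± 0.40 and -2.23 ± 0.27. The gluconeogenic enzymes Pck1 and G6pc were not called (-0.04 and -0.43). In amino acid catabolism 8 of 48 genes fell and 0 rose. Glutamine synthetase (Glul), found in the hepatocytes that border the central vein, read 12.07, 12.06 and 12.04 after vehicle and 9.30, 8.82 and 8.20 after tunicamycin. It fell by 3.28 ± 0.28 (9.71-fold lower, adjusted p = 4.42e-05), with no overlap between groups. Of the urea cycle, Cps1 and Ass1 were not called (-0.32 and 0.55, the latter called without tunicamycin animal 2). Otc fell by 1.5 ± 0.32, and was not called without vehicle animal 3 or tunicamycin animal 2 (adjusted p = 0.0504 to 0.0636). The Ass1 probe set averaged only 5.95 after vehicle and 6.5 after tunicamycin, against 12.93 and 12.62 in Asl of the same cycle. Whether it reads the main Ass1 transcript was not tested.

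Genes of the growth hormone axis were among the falls. Igfals, the partner that keeps insulin-like growth factor 1 in blood, read 10.18, 9.77 and 9.61 after vehicle and 6.02, 5.59 and 5.84 after tunicamycin. It fell by 4.04 ± 0.16 (16.4-fold lower, adjusted p = 6.07e-07). Igf1 itself read 12.43, 12.57 and 12.78 after vehicle and 11.77, 10.40 and 11.07 after tunicamycin and fell by 1.51 ± 0.30, and the growth hormone receptor Ghr 11.91, 12.14 and 12.50 after vehicle and 10.47, 9.96 and 10.92 after tunicamycin, with a fall of 3.32-fold. The feedback genes Socs2 and Cish, targets of STAT5, changed by -2.61 ± 0.45 and -0.95 ± 0.19, and Stat5b by -0.03 ± 0.14 (adjusted p = 0.941). The activin subunits Inhbe and Inhbc and the hepatokine Lect2 changed by -2.53 ± 0.20, -1.71 ± 0.26 and -2.45 ± 0.33. Fgf21, a hormone known as a target of ATF4, read 6.36, 5.39 and 5.40 after vehicle and 5.49, 5.93 and 5.88 after tunicamycin, a change of 0.05 ± 0.52 (adjusted p = 0.98). Angptl6, a secreted angiopoietin-like factor, rose by 1.83 ± 0.18. The list of secreted hormones and their receptors had 8 of 30 members down and 2 up.

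Secreted plasma proteins fell in part. Complement had 10 of 24 members down and 0 up (6 without vehicle animal 3). Complement C5 (Hc) read 12.50, 12.79 and 13.10 after vehicle and 11.52, 10.89 and 11.42 after tunicamycin and C1s1 11.03, 10.84 and 11.05 after vehicle and 9.19, 8.98 and 9.57 after tunicamycin, and they changed by -1.52 ± 0.23 and -1.73 ± 0.18. Apolipoproteins and their assembly had 4 of 21 down and 1 up (2 without vehicle animal 3). Lipg, the endothelial-type lipase, read 8.94, 7.52 and 8.39 after vehicle and 5.35, 5.13 and 4.99 after tunicamycin and fell by 3.13 ± 0.28, and Apoa1, the main protein of high-density lipoprotein, fell by 1.53 ± 0.19. Apob, the structural protein of very-low-density lipoprotein, changed by -0.45 ± 0.22 (adjusted p = 0.326). Coagulation factors had 7 of 31 down (2 without vehicle animal 2, 1 without vehicle animal 3, 4 without tunicamycin animal 2 and 4 without tunicamycin animal 3), with -1.37 ± 0.15 in Proz, and the 2 that rose, Mcfd2 and Lman1, are cargo receptors of the ER rather than plasma factors. Of 30 acute-phase genes 1 rose and 2 fell, against 3.45% and 3.86% of all genes, so nothing is read from these counts. Saa1 read 10.35, 12.10 and 12.34 after vehicle and 9.58, 8.59 and 8.87 after tunicamycin, a difference of -2.58 ± 0.73 that was not called (adjusted p = 0.0599, called without vehicle animal 1).

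Among 48 liver-enriched factors and nuclear receptors, 10 fell and 0 rose. Tbx3, a factor of hepatocytes near the central vein, read 6.97, 7.15 and 7.29 after vehicle and 4.78, 5.86 and 5.14 after tunicamycin, and Hes6 9.11, 9.76 and 9.84 after vehicle and 7.38, 7.24 and 7.69 after tunicamycin. They changed by -1.88 ± 0.23 and -2.13 ± 0.22. Nfia, of the nuclear factor I family, fell by 1.12 ± 0.16, while Foxa2, Prox1 and Nr5a2 were not called (-0.22, -0.52 and -0.38, with Prox1 called without tunicamycin animal 1). In the AP-1, Maf and Kruppel-like list, 4 of 34 rose (1 without vehicle animal 2, 1 without vehicle animal 3, 2 without tunicamycin animal 2 and 1 without tunicamycin animal 3). The clock gene Hlf fell by 1.00 ± 0.20 and Nfil3, its repressing counterpart, changed by 2.35 ± 0.53, and was not called without vehicle animal 1, vehicle animal 3 or tunicamycin animal 3 (adjusted p = 0.052 to 0.0735).

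Genes of other stress programmes were called in varying numbers. Over all genes 3.45% rose and 3.86% fell. The smallest counts below lie near these shares, so nothing is read from them. Cytosolic and mitochondrial heat shock proteins had 2 of 30 members up (1 when any single animal other than vehicle animal 3 was left out) and 2 down (1 without vehicle animal 2 or 3 or tunicamycin animal 1 or 2), and the main cytosolic forms Hspa1b and Hspa8 changed by -0.68 ± 0.28 and 0.22 ± 0.19. NRF2 targets had 0 of 25 up and 7 down (4 without vehicle animal 2 and 3 without vehicle animal 3), with Gclc, of glutathione synthesis, down by 1.17 ± 0.18 and Nqo1 at -0.47 ± 0.47 (adjusted p = 0.698). Of 30 p53, growth arrest and apoptosis genes 2 rose (1 without vehicle animal 2 or 3, 4 without tunicamycin animal 1) and 1 fell (2 without vehicle animal 2, 0 without vehicle animal 3 or tunicamycin animal 2 or 3). Autophagy and lysosome genes had 3 of 41 up (1 without vehicle animal 1) and 4 down. Of 36 NF-kB and chemokine genes 1 rose (2 without tunicamycin animal 2 or 3) and 3 fell. Of 28 cell division genes 1 rose (0 when any single animal other than tunicamycin animal 1 was left out) and 1 fell (3 without vehicle animal 1, 0 without vehicle animal 2 or 3 or tunicamycin animal 1). Lonp1, the mitochondrial protease, rose by 1.15 ± 0.14, and Slc40a1, the iron exporter ferroportin, read 11.09, 11.15 and 11.24 after vehicle and 9.38, 9.51 and 9.48 after tunicamycin and fell by 1.70 ± 0.23.

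Liver homogenate holds several cell types, and in such bulk RNA fewer cells of a type and less RNA per cell cannot be told apart. Of 20 Kupffer cell and macrophage markers, 7 fell (4 without vehicle animal 2, 2 without vehicle animal 3 and 3 without tunicamycin animal 1) and 1 rose. The riser, Marco, was not called when any single wild-type animal was left out (adjusted p = 0.0673 to 0.152). The mean level of the 20 markers was 7.63 to 7.87 in vehicle animals and 7.12 to 7.41 in tunicamycin animals. Slc40a1, whose fall is given above, is 1 of these markers, as are the C1q chains of the complement list. Csf1r, the receptor that macrophages need, read 10.28, 10.19 and 10.39 after vehicle and 9.14, 9.35 and 9.14 after tunicamycin and fell by 1.08 ± 0.25, and was not called without vehicle animal 1, vehicle animal 2, vehicle animal 3, tunicamycin animal 1 or tunicamycin animal 3 (adjusted p = 0.0529 to 0.0798). The macrophage antigen Adgre1 changed by -0.42 ± 0.22 (adjusted p = 0.351). Neutrophil markers had 1 of 11 up (mean level 4.81 to 4.99 in vehicle and 5.06 to 5.49 in tunicamycin animals), with Mpo, Camp and Mmp8 below the highest array median of 4.71 in both groups. By limma, 0 of 13 lymphocyte, 0 of 15 endothelial and 0 of 5 cholangiocyte markers were called, against 3, 7 and 1 at an unadjusted p under 0.05 and 4, 7 and 0 by the unadjusted 2-group test that the methods of the study name. Of 16 stellate cell and fibroblast markers 1 fell (4 without vehicle animal 1, whose Xist level stands apart, and 2 without tunicamycin animal 3). Endothelial markers had a mean level of 7.50 to 7.65 in vehicle and 7.24 to 7.28 in tunicamycin animals. Of 9 hepatocyte markers 2 fell and 0 rose. They were Apoa1 and Hnf4a, and the latter fell by 0.71 ± 0.16, and was not called without vehicle animal 2, vehicle animal 3, tunicamycin animal 2 or tunicamycin animal 3 (adjusted p = 0.0595 to 0.0775). Of 21 genes known to differ between the sexes in mouse liver 0 were called (2 at an unadjusted p under 0.05 by limma, and 2 fell without vehicle animal 1). Their mean level was 7.45 to 8.20 in vehicle and 6.70 to 7.07 in tunicamycin animals. The median change was -0.61, and 19 of the 21 changes were negative. An animal of another sex within the vehicle group would widen the spread of such genes, so the 0 calls decide nothing about sex. The part of these cell differences in the changes above was not tested. Sex was approached only by a fit with the Xist level as a covariate, which called 1337 genes in place of 1330. Similar totals do not show that the same genes were called. Of the 244 called genes that were named, 10 lost their calls in that fit, Canx among them.

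The response was also set beside that of Atf6a-/- liver by the interaction of genotype and treatment. It was called in 2594 genes (14.3%). The test shares the wild-type arrays with the response itself, so values of both genotypes are given side by side. Genes that rose less in Atf6a-/- liver include Pdia3 (1.71 in wild-type and 0.82 in Atf6a-/- liver), Ero1b (2.19 and 1.24) and Uggt1 (1.64 and 0.91). Others rose more, such as Gfpt1 (3.15 and 4.66), Arfgap3 (1.81 and 3.63) and Sec23b (1.37 and 2.41). The values were 2.06 and 1.5 in Hyou1, 2.03 and 2.12 in Derl1 and 3.25 and 2.84 in Manf, where the interaction was not called. Socs2 fell in wild-type liver and changed by 1.53 in Atf6a-/- liver, and Slc10a1 changed by -1.66 and -8.18. Atf6, the gene altered in the Atf6a-/- animals, changed by 1.02 and 2.77, and the labels do not say which part of it is deleted, so that its probe set is no check of the genotype.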

How the data were processed

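Liver RNA of 12 mice was hybridised to Affymetrix arrays, 1 per animal. The authors deposited log2 values from robust multi-array averaging (RMA), which subtracts background, equalises the arrays' distributions and summarises the probes of a probe set. The submitters' processing notes name affy and limma, with no versions given. The 45101 features include 64 AFFX controls, which were left out. Of 45037 probe sets, the platform table links 34945 to a single gene symbol and 932 to several, and 9160 have no symbol there.

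Values were used as deposited. A mean per group was fitted over all 12 arrays with limma 3.58.1 (R 4.3.3), with contrasts for the wild-type response and for the interaction of genotype and treatment, two-sided tests and Benjamini-Hochberg adjustment. Tables, promoters (RefSeq, GRCm38.p6, 14452 of 18193 genes matched by symbol) and plots used matplotlib 3.10.9, numpy 2.4.6, pandas 2.3.3 and scipy 1.17.1 under Python 3.11.15. The fit was tested on simulated data. Where the mean of the lower group is under 4.71, the highest array median, no fold is given, since the change is then only a lower bound.

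The 57 gene lists and the comparison were chosen with earlier results of these data known. Named genes are Atf6, Atf6b, Xbp1, Hspa5, Atf4, Ddit3 and Dpagt1, the 15 largest rises and falls among called genes with groups that do not overlap and a higher mean of at least 7, and up to 3 rises and 3 falls per list (the 2 largest changes where none was called). The choice of examples among them, and all other genes in the text, came after their values were seen. Alternatives covered scaling, filters, thresholds, probe set averaging, the Xist level, the animal number as a block and leaving out each animal.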

Additional observations from a re-analysis of the deposited data

Results flagged for a closer look

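Of the 192 genes given with values in the text, 80 had a response that differed between wild-type and Atf6a-/- liver by the interaction term of limma (adjusted p under 0.05 and over 1.5-fold), against 14.3% of all genes. Most of these genes were chosen for their wild-type changes, and the interaction uses the same wild-type arrays, so nothing is read from this share. Each value here is that difference, the Atf6a-/- change minus the wild-type change on the log2 scale. Its adjusted p ranged from 1.73e-07 in Proz to 0.0497 in Acot2.

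Genes of the ER and Golgi that rose in wild-type liver and had a smaller response in Atf6a-/- liver were at -2.34 in Creld2, -1.54 in Dnajb11, -1.21 in Nucb1, -0.95 in Ero1b, -0.89 in Pdia3, -0.75 in Sil1, -0.74 in Uggt1 and -0.61 in Prkcsh. The largest of these, Creld2, changed by 5.15 in wild-type and 2.81 in Atf6a-/- liver. Genes that rose in wild-type liver and had a larger response in Atf6a-/- liver were at 1.82 in Arfgap3, 1.75 in Atf6, 1.62 in Slc3a2, 1.52 in Gfpt1, 1.5 in Acot2, 1.49 in Gas5, 1.37 in Odc1, 1.34 in Dhdds, 1.25 in Gmppb, 1.20 in Ero1a, 1.08 in Lonp1, 1.04 in Sec23b, 0.99 in Alg12, 0.87 in Sars, 0.85 in Krtcap2, 0.83 in Srp68 and 0.83 in Ssr1.

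Of the genes of lipid metabolism given in the text that fell in wild-type liver, those with a called interaction had larger falls in Atf6a-/- liver, at -4.05 in Bdh1, -2.62 in Fads2, -2.53 in Hadh, -2.47 in Stard4, -2.05 in Acat1, -2.0 in Pemt, -1.96 in Agpat2, -1.86 in Pcyt2, -1.75 in Elovl2, -1.28 in Scp2 and -1.09 in Mgll. Elovl5, Fads1, Fabp5 and Pmvk also fell and had no called interaction. Bile acid genes with a larger fall in Atf6a-/- liver were at -6.52 in Slc10a1, -2.27 in Fgfr4, -1.47 in Abcb11 and -0.94 in Nr1h4, and drug-metabolising genes at -5.78 in Ces1f, -4.49 in Akr1c6, -4.11 in Ces1g, -3.07 in Cyp2c54, -2.77 in Gsta4, -2.35 in Cyp2c50 and -1.51 in Cyp2f2, while Hsd3b7, Ces2e and Akr1c20 fell with no called interaction. Slc10a1 changed by -1.66 in wild-type and -8.18 in Atf6a-/- liver. Further genes that fell in wild-type liver differed by -6.80 in Otc, -5.79 in Proz, -4.20 in Hc, -3.06 in Slc1a2, -2.81 in Hes6, -2.46 in Iigp1, -2.17 in Lect2, -1.80 in Pygl, -1.64 in Nfia, -1.5 in Inhbc, -1.48 in Igf1, -1.46 in Hlf, -1.29 in Notum, -1.26 in C1s1 and -1.01 in Psme1.

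Genes not called in wild-type liver differed by -5.82 in Pck1, 3.60 in Cdkn1a, -2.38 in Cyp2e1, -1.92 in Cpt1a, -1.84 in Apob, 1.74 in Plin2, -1.64 in Cps1, 1.5 in Atf4, -1.36 in Ass1, -1.22 in Herpud1, -1.17 in Nr5a2, 1.13 in Ost4, -1.08 in Stat5b, -0.86 in Creb3l3, 0.80 in Psmb6 and -0.77 in Prox1. The largest, Pck1, changed by -0.04 in wild-type and -5.86 in Atf6a-/- liver. The value of Ass1 rests on the low-level probe set described above. Mvd changed by 2.15 in wild-type and -0.32 in Atf6a-/- liver, a difference of -2.47. Socs2 changed by -2.61 in wild-type and 1.53 in Atf6a-/- liver, a difference of 4.14.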

How the results depend on the processing

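The 1330 genes called became 2623 after spike-in scaling (2252 rose and 371 fell), 226 when a change over 1.5-fold was itself tested with treat (117 rose and 109 fell) and 1 by the methods' t-test after Benjamini-Hochberg adjustment (1 rose and 0 fell, against 1462 genes called at an unadjusted p), and the cause was not tested. The 2594 interaction genes became 661 with treat. The ERSE was in 0.551% of risers' promoters after spike-in scaling, 7.26% with treat and 0% by the adjusted methods' t-test, in place of 1.62%. Leaving out 1 animal at a time gave 977 to 1380 genes called and 1828 to 3489 interaction genes. The other alternatives left the gene counts within 1.5 times (1043 genes from the 6 wild-type arrays alone, 1485 with dim probe sets filtered, 1676 with no fold threshold and 1337 with the Xist level as a covariate). With the animal number as a replicate block, 1416 genes were called (672 rose and 744 fell). Deviations of same-numbered wild-type animals correlated at 0.027, 0.155 and -0.001. No differently numbered animals were set beside them, so these values do not decide whether the numbers pair the animals.

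Of the 244 called genes that were named, none turned direction under the alternatives tried, and the other called genes were not checked for this. List medians did: 18 of 57 changed sign under spike-in scaling, such as coagulation (-0.33 to 0.02), acute-phase proteins (-0.24 to 0.11), urea cycle and amino acid catabolism (-0.32 to 0.03), hepatocyte markers (-0.32 to 0.03) and oxidative phosphorylation (-0.20 to 0.15), with 2 under Btf3 and Ppia scaling and 1 under quantile normalization. Of 76 list counts of 2 genes or fewer, 42 changed when 1 of the 12 animals, of either genotype, was left out, by up to 3 genes. Of the 244 called genes that were named, averaging a gene's probe sets lost the calls of 18, among them Axin2, Fgfr4, Nfia, Tmem258, Tmx4 and Txndc11. The 6 wild-type arrays alone lost the calls of 34, Dnajc10 and Eif2ak3 among them, and treat lost those of 131. The adjusted methods' t-test called 0 of these 244. Spike-in scaling raises every wild-type tunicamycin array relative to every wild-type vehicle array. Under it 13 of the 244 lost their calls, among them Axin2, Cish, Csf1r and Hnf4a. Atf4 (1.08) and Xbp1 (0.60) were called, and 33 of 36 ribosomal protein genes rose and 4 of 41 proteasome genes fell. The 3 animals a group, with 1 array each, limit the precision, and probe sets near background give only a lower bound of a change.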

Other observations

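Further groups were described after their values had been seen, so their counts support nothing beyond these animals. Genes of hepatocytes around the central vein had 16 of 24 members down and 0 up, with a median of -1.21, and genes of hepatocytes around the portal vein 6 of 21 down and 0 up, with a median of -0.50. The central group includes targets of Wnt signalling. Lgr5, the receptor of R-spondins, read 6.42, 6.12 and 6.08 after vehicle and 5.04, 4.79 and 4.72 after tunicamycin, the Wnt deacylase Notum 9.45, 8.61 and 8.30 after vehicle and 6.99, 7.16 and 6.93 after tunicamycin, and the feedback gene Axin2 6.0, 5.87 and 6.27 after vehicle and 5.12, 5.37 and 5.17 after tunicamycin. Their changes were -1.36, -1.76 and -0.83, and all 3 fell. In none did the groups overlap, which holds for 1327 of the 1330 called genes. Of other Wnt targets in the group, Nkd1, Znrf3 and Sp5 were not called (-0.08, -0.51 and 0.26). Rgn (regucalcin) changed by -2.80 ± 0.28 and Lect2 by -2.45 ± 0.33, whereas Cyp2e1, a classical gene of the same cells, changed by -0.24 ± 0.26. Around the portal vein, Cyp2f2 changed by -1.80 ± 0.27 and Cps1 by -0.32 ± 0.32 (adjusted p = 0.702).

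Host genes of small nucleolar RNAs, whose reading frames stop early so that the spliced RNAs are usually degraded during translation, had 7 of 16 members up and 0 down (4 without vehicle animal 3 or tunicamycin animal 2), with a median of 1.05. Gas5 read 10.67, 10.17 and 9.90 after vehicle and 11.68, 13.01 and 11.79 after tunicamycin, and Snhg12 8.14, 7.64 and 7.39 after vehicle and 9.42, 11.69 and 10.04 after tunicamycin, with animal 2 highest in both. Among 18 genes of polyamine, pyrimidine and purine synthesis 4 rose and 1 fell (7 and 2 without tunicamycin animal 1). Srm, the spermidine synthase, read 8.94, 8.77 and 8.68 after vehicle and 10.72, 12.60 and 10.97 after tunicamycin, and Cad, the first enzyme of pyrimidine synthesis, 5.43, 5.41 and 5.36 after vehicle and 7.13, 8.85 and 7.43 after tunicamycin. They rose by 2.63 ± 0.36 and 2.40 ± 0.36, and Odc1, the first enzyme of polyamine synthesis, by 1.47 ± 0.22. Of 25 interferon-induced genes 12 fell and 0 rose (6 without tunicamycin animal 2). Iigp1, an immunity-related GTPase, read 11.34, 11.62 and 12.41 after vehicle and 9.97, 9.54 and 9.92 after tunicamycin and fell by 1.98 ± 0.23. The median of these genes was -0.86.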
